A study of Mus musculus with 9 samples.

Results

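The proteins of the cytosolic ribosome are encoded by a large family of genes, named Rpl and Rplp for the large subunit and Rps and Rpsa for the small one. Here 84 such genes were followed in 9 RNA sequencing libraries of mouse blood monocytes. They were taken by symbol from the 23234 symbols in each library, without names ending in -ps and a number (3 symbols) and without the Rps6k kinases (10 symbols). Of the 86 symbols that then matched, 2 were left out for a mean under 1 FPKM over the 9 libraries (fragments scaled by transcript length and library size). Of the 84 genes, 50 belong by name to the large subunit and 34 to the small one. The family holds 77 core genes, 6 paralogs of core genes (Rpl3l, Rpl7l1, Rpl22l1, Rpl36al, Rps27l and Rps4y2) and Rps19bp1, which binds a ribosomal protein and is not one itself.

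All libraries came from the peripheral blood of 8 month old C57BL/6 mice with the Yaa mutation, a Y chromosome with a duplicated piece of the X chromosome that holds Tlr7. Monocytes were sorted as Gr-1+CD11b+ (4 libraries) or Gr-1-CD11b+ (5 libraries). The Gr-1+ libraries were 1 of CD19Cre;Fcgr2 fl/fl.Yaa, 2 of Fcgr2-/-.Yaa (null below) and 1 of CEBPaCre;Fcgr2 fl/fl.Yaa. The Gr-1- libraries were 1 each of CD19Cre;Fcgr2 fl/fl.Yaa, Fcgr2-/-.Yaa, CEBPaCre;Fcgr2 fl/fl.Yaa, CD11cCre;Fcgr2 fl/fl.Yaa and Fcgr2 fl/fl.Yaa (floxed below, no Cre). Fcgr2, listed as Fcgr2b, encodes the inhibitory IgG receptor. CD19Cre is a B cell driver, CEBPaCre acts in myeloid progenitors and CD11cCre in dendritic cells and part of the monocytes. Whether each library is a separate animal, or a pool of several, is not in the labels. A p therefore reflects the spread among these libraries alone, which may be technical.

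A ribosome takes 1 copy of nearly every one of these proteins, and cells keep their amounts in step. Control acts largely on translation: most of these mRNAs start with a cytosine followed by a run of pyrimidines, the terminal oligopyrimidine (TOP) tract, through which mTOR signalling and LARP1 govern their translation and stability. The mRNAs are short, abundant and long lived, and in most tissues they make up a sizeable part of all messages. Many have processed pseudogene copies elsewhere in the genome.

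The start regions of some genes discussed below are shown first, because the run of pyrimidines at the start is the feature the family is known for. Sequences are from RefSeq (GRCm38.p6), matched by symbol, which gave an entry for 62 of the 84 genes. Each shows 60 bases before the annotated start and the first 20 bases from it, 5′ to 3′. Capitals mark a run of at least 6 C or T that includes the first transcribed base. The first 5 had lower values in the libraries labelled CD19Cre with a test passed, and had the smallest p among the ribosomal protein genes with such a run.
Rps15a: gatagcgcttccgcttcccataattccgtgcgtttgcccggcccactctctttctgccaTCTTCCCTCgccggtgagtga
Rpl27a: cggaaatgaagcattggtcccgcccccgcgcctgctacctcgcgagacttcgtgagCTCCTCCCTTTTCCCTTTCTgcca
Rps10: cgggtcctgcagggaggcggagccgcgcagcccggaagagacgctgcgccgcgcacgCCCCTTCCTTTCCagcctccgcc
Rps24: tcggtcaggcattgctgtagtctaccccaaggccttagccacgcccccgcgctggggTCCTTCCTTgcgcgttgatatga
Rps21: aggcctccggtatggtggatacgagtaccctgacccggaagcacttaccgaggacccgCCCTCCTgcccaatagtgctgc
These lie at chr7:118116128-118116207, minus strand (Rps15a), chr7:109519135-109519214, plus strand (Rpl27a), chr17:27635225-27635304, minus strand (Rps10), chr14:24490618-24490697, plus strand (Rps24) and chr2:180257319-180257398, plus strand (Rps21). A pair of paralogs that did not pass as lower in those libraries, Rpl7l1 at chr17:46782637-46782716, minus strand and Rps27l at chr9:66946026-66946105, plus strand, are printed for comparison and have no such run. The genes above were picked for having a run, so these sequences cannot relate a run to the CD19Cre difference. That relation was not tested.
Rpl7l1: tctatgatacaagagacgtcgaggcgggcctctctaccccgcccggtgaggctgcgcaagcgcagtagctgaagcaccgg
Rps27l: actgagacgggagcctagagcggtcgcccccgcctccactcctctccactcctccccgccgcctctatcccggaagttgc
Over the 62 genes with an entry, 19 (30.6%) had a run of at least 6 pyrimidines over the annotated start, against 8.48% of all 27025 symbols in the table and 2 of 67 (2.99%) genes of the mitochondrial ribosome. The motif CCGGAAG, searched on both strands in the 300 bases of each entry, was in 38.7% of these genes, in 35.8% of the mitochondrial ribosome genes and in 9.93% of all symbols. A run depends on the exact annotated start, so its absence says only that these letters are not at that base.

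The libraries differ in ways that bear on the values. The files used here hold no counts, so depth is unknown. Judged by the spacing of low FPKM values, relative depth was 1.03 and 2.66 in the Gr-1+ and Gr-1- libraries labelled CD19Cre, and 0.705 to 2.28 in the others, with the floxed library at 1. The number of symbols listed at 0 was 10140 and 8827 in the libraries labelled CD19Cre, and 5123 to 9482 in the others. Monocyte markers were detected in every library (12 of 12 above 0). Their mean log2(FPKM + 1) was 7.96 and 7.90 in the Gr-1+ and Gr-1- libraries labelled CD19Cre, and 7.22 to 8.23 in the others. Single markers varied, with Itgam at 61.7 FPKM in CD19Cre Gr-1+ cells and 170 to 186 FPKM in the other Gr-1+ libraries. In Gr-1- cells Itgam had 68.3 FPKM in CD19Cre, 66.1 FPKM in floxed and 136 to 180 FPKM in the others. Fcgr2b had 83.0 to 201 FPKM in libraries labelled null or CEBPaCre and 74.9 to 195 FPKM in those labelled CD19Cre or floxed. Its RNA therefore did not separate the labelled genotypes, and genotype names below are those of the labels. The values of both libraries labelled CD19Cre are given apart for most measures. Both still enter the correlations across libraries, the ranking of genes by spread, the spread scaled to the family's sum and the first subset test.

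Ribosomal protein genes were among the most abundant messages, and 68 of the 84 had a mean over 100 FPKM. Of the 10436 genes tested, 768 outside the family averaged 100 FPKM or more. The highest means belonged to Rps29 (1008 FPKM), Rpl13 (814), Rpl41 (775), Rps19 (740.4) and Rps9 (734). Rps29 is a small zinc-binding protein of the 40S head, Rpl41 the shortest of the ribosomal proteins, and Rps19 the gene most often mutated in human Diamond-Blackfan anaemia. Rpl26, with a mean of 1.79 FPKM, was the member nearest the limit of 1 FPKM, and the testis paralogs Rpl39l and Rpl10l, with means of 0.129 and 0.0539 FPKM, were the 2 left out, both well below it. In all, 7 genes had a mean under 20 FPKM: Rpl22, Rps19bp1, Rps15a, Rps4y2, Rpl30, Rpl3l and Rpl26. The order of levels was much alike in all libraries, with a Spearman correlation over the 84 genes of 0.842 to 0.987 for the 36 pairs of libraries. The 5 highest genes held 15.4% to 18.8% of the family's sum in each library.

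The family's share of all FPKM differed severalfold between libraries, and the libraries labelled CD19Cre were lowest in each subset. In Gr-1+ cells the share was 2.03% in the library labelled CD19Cre, against 7.84% and 5.69% in null replicates 1 and 2 and 6.47% in CEBPaCre. In Gr-1- cells it was 2.32% in CD19Cre, against 5.30% in null, 4.76% in CEBPaCre, 3.73% in CD11cCre and 5.90% in floxed. Both CD19Cre values lay below every other library, of which CD11cCre was the lowest. Over the subsets, the share was 2.17% ± 0.20 in the libraries labelled CD19Cre and 5.67% ± 1.30 in the others (SD, n = 2 and 7). Gr-1+ libraries had 5.51% ± 2.48 and Gr-1- libraries 4.40% ± 1.41 (SD, n = 4 and 5), a difference smaller than either SD. Without the libraries labelled CD19Cre, Gr-1+ libraries had 6.67% ± 1.09 and Gr-1- libraries 4.92% ± 0.92 (SD, n = 3 and 4). The subunits kept a similar proportion, with a ratio of small to large subunit FPKM between 0.767 and 0.916 in all libraries. It was 0.767 to 0.853 in Gr-1+ libraries and 0.852 to 0.916 in Gr-1- libraries, so the subsets just overlapped. A summed share in bulk RNA cannot tell fewer cells of a type from less RNA per cell.

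**Figure D1:**
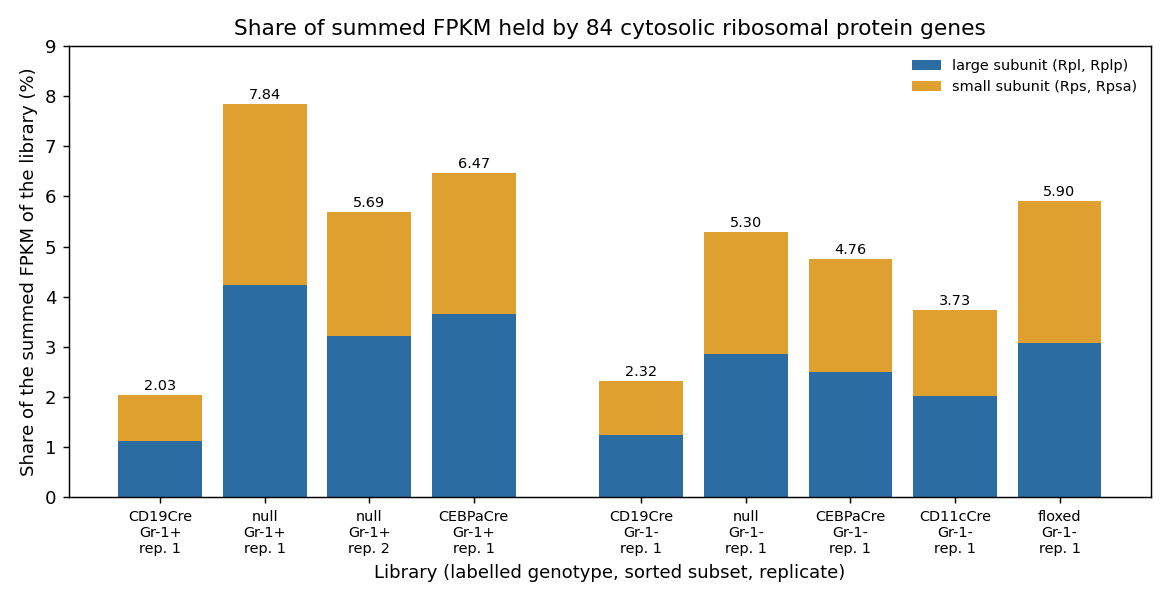
Bars give the share of each library's summed FPKM (y axis, %) held by the 84 ribosomal protein genes, split by subunit, for the 9 libraries (x axis: labelled genotype, subset, replicate), without error bars because each bar is 1 library. The bars of the libraries labelled CD19Cre stand at 2.03% and 2.32%, below the lowest other bar at 3.73%.

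Between the libraries labelled CD19Cre and those of other genotypes, 63 of the 84 genes were lower, 2 were higher and 19 did not pass the test. Of the 2 higher genes, Rpl26 rests on values near 0, described below. The test was limma on log2(FPKM + 1) over 10436 genes with the subset as a covariate, and a gene passed at an adjusted p (Benjamini-Hochberg) of 0.05 or less. Of all genes tested, 5.41% were lower and 13.9% higher. The median difference of the 84 genes was -1.23 on the log2 scale, while that of all genes tested was 0.18. Large subunit genes (38 of 50 lower, median -1.22) and small subunit genes (25 of 34 lower, median -1.29) had similar shares. In 65 of the 84 genes both libraries labelled CD19Cre lay below all 7 others, which held for 9.02% of all genes tested. The CD19Cre comparison was chosen with this pattern known.

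The largest difference was that of Rpl39, a small protein in the wall of the peptide exit tunnel. In Gr-1+ cells Rpl39 had 27.1 FPKM in CD19Cre, against 429, 259 and 361 FPKM in null replicates 1 and 2 and CEBPaCre. Its Gr-1- values were 48.3 FPKM in CD19Cre, against 224, 180.1, 124 and 266 FPKM in null, CEBPaCre, CD11cCre and floxed. Each library labelled CD19Cre was far below all others of its subset, with no overlap, and the log2 difference was -2.76 ± 0.39 (SE; limma, adjusted p = 0.00804).

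Rpl37a, a zinc-binding protein of the large subunit, had 101 FPKM in CD19Cre Gr-1+ cells, against 1033, 594 and 908 FPKM in null replicates 1 and 2 and CEBPaCre. In CD19Cre Gr-1- cells it had 191 FPKM, against 640.1, 605, 521 and 705 FPKM in null, CEBPaCre, CD11cCre and floxed. The groups did not overlap (log2 difference -2.33 ± 0.31, limma adjusted p = 0.00804). Rps12, in the head of the small subunit, had 43.6 and 42.7 FPKM in the Gr-1+ and Gr-1- libraries labelled CD19Cre, against 411, 228 and 263 FPKM in the other Gr-1+ and 168, 156, 94.1 and 180.5 FPKM in the other Gr-1- libraries. Again the CD19Cre values were the lowest of all (log2 difference -2.21 ± 0.32, limma adjusted p = 0.00804).

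Rps13, a small subunit protein near the subunit interface, averaged 90.2 ± 38.0 FPKM in the libraries labelled CD19Cre and 333 ± 80.6 FPKM in the others (SD, n = 2 and 7), a log2 difference of -1.92. Rpl27a averaged 31.8 ± 4.13 FPKM in CD19Cre and 119 ± 44.5 FPKM in the others (-1.84), and Rps15a 2.94 ± 0.554 FPKM in CD19Cre and 13.7 ± 5.09 FPKM in the others (-1.87). All 3 passed at a limma adjusted p of 0.00804, and in none did the groups overlap. Rps29, the most abundant of the family, fell to 365 ± 13.3 FPKM in the libraries labelled CD19Cre, against 1192 ± 362 FPKM in the others (-1.68 ± 0.28, limma adjusted p = 0.00804).

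The lateral stalk of the large subunit, which recruits the elongation factors, showed unequal differences. Its base, Rplp0, did not pass, with 318 ± 29.6 FPKM in the libraries labelled CD19Cre and 448 ± 157 FPKM in the others (SD, n = 2 and 7; limma adjusted p = 0.218). Its acidic partners did pass, with differences for Rplp1 of -0.98 ± 0.25 and for Rplp2 of -1.45 ± 0.26 on the log2 scale (limma adjusted p = 0.0247 and 0.00914). With upper quartile scaling Rplp0 passed as well (adjusted p = 0.0280), and Rplp1 missed the threshold without the mean filter (0.0592) and without the CD19Cre Gr-1- library (0.0593). A test of Rplp0 against its partners was not made. Rpsa, a small subunit protein also known as the laminin receptor precursor, was lower with a difference of -1.36 ± 0.26 on the log2 scale, and Rps27a, made as a fusion with ubiquitin, with one of -1.66 ± 0.33 (limma adjusted p = 0.00980 and 0.0116).

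**Figure D2:**
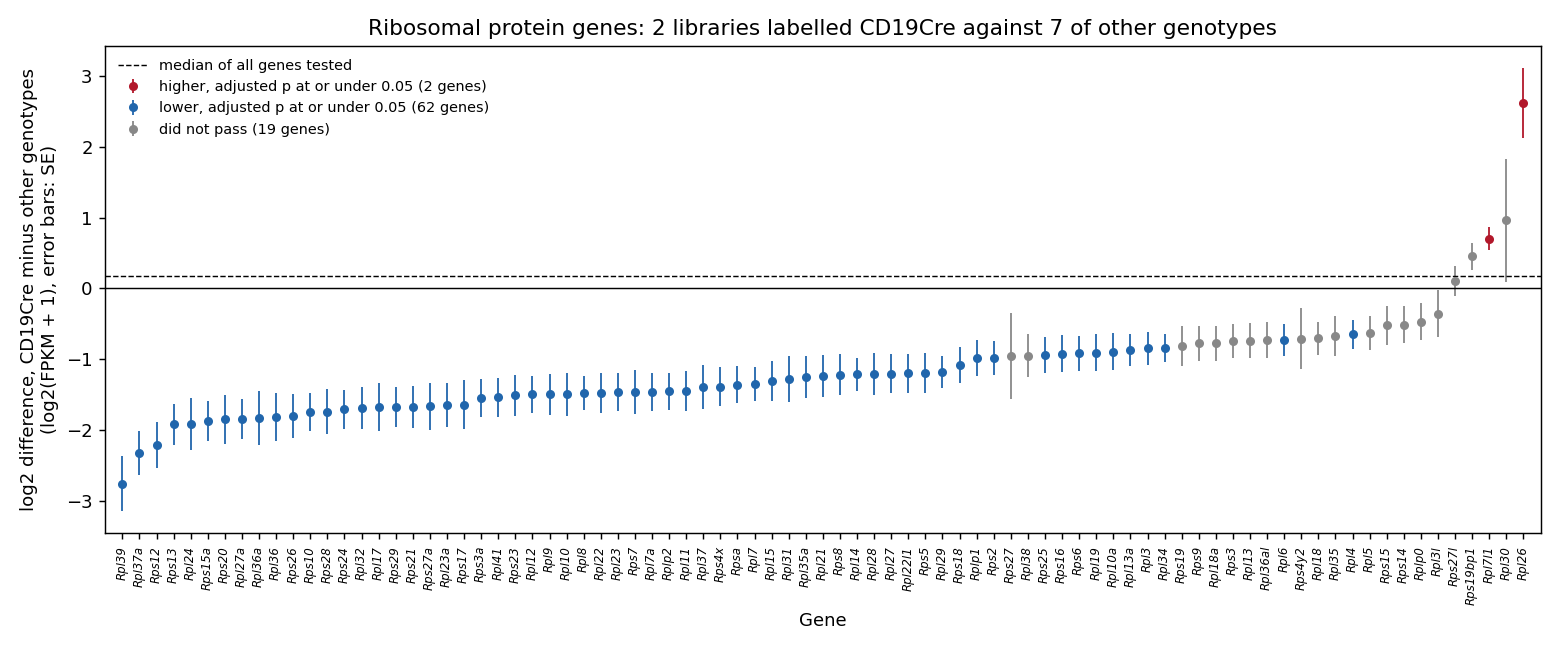
Each point is the log2 difference in log2(FPKM + 1) of 1 ribosomal protein gene (83 plotted; x axis, ordered by size) between the 2 libraries labelled CD19Cre and the 7 of other genotypes, with its SE from limma. Most points lie below 0, down to -2.76 for Rpl39, while Rpl7l1 and Rpl26 lie above it and passed the test, Rpl26 on values near 0 whose difference depends on the pseudocount.

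The number of calls depended on a single library. Without the CD19Cre Gr-1+ library, none of the 84 genes passed (limma; 1 of all genes tested did), 44 had an unadjusted p under 0.05 (16.7% of all genes tested), and the median difference was -0.82. The lone remaining library is then assumed to vary like the other genotypes. Without the CD19Cre Gr-1- library, 53 were lower and 1 higher, with a median of -1.78, while 284 of all genes tested were lower and 255 higher. The term for a different CD19Cre effect in the subsets was negative in 81 of 84 genes, yet none passed the limma test and 18 had an unadjusted p under 0.05. Of all genes tested, the term was positive in 45.5%, 2.71% had an unadjusted p under 0.05, 0.0192% passed with a negative term and 0.00958% with a positive one. Scaling each library to the same upper quartile shifted the median of all genes tested from 0.18 to -0.11, and then 76 of the 84 genes were lower and 2 higher, with 908 higher and 1409 lower over all genes tested against 1453 and 565 without it.

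Set against its own subset, the CD19Cre Gr-1+ library was the lowest of 4 in 77 of the 84 genes (29.4% of all genes tested), and the CD19Cre Gr-1- library the lowest of 5 in 69 (16.8%). The median log2 difference from the mean of the other libraries was -1.78 in Gr-1+ cells, where that of all genes tested was 0.13. In Gr-1- cells it was -0.82, where that of all genes tested was 0.22. The Gr-1+ value was at most 0.5 times the mean of the other Gr-1+ libraries in 73 genes (14.0% of all genes tested), and the Gr-1- value at most 0.5 times that of the others in 33 (8.12%). Erythroid markers (8 genes) summed to 296 FPKM in CD19Cre Gr-1+ cells, against 619 to 2575 FPKM in the other Gr-1+ libraries (Slc4a1 and Klf1 were at 0 in CD19Cre, and Klf1 in all the others). They summed to 1289 FPKM in CD19Cre Gr-1- cells, against 501 to 3715 FPKM in the other Gr-1- libraries. The median difference of the 5 erythroid markers tested was -1.51, and none of them passed. B cell markers (9 genes) summed to 16.7 FPKM in CD19Cre Gr-1+ cells, against 10.7 to 19.8 FPKM in the other Gr-1+ libraries, with Ms4a1, Pax5, Cr2 and Ebf1 at 0 in CD19Cre. In CD19Cre Gr-1- cells they summed to 106 FPKM, against 47.2 to 131 FPKM in the other Gr-1- libraries, with Pax5 at 0. Of 14 neutrophil markers tested, 1 was higher and 0 lower in the libraries labelled CD19Cre (median 0.49). Of 12 monocyte markers, 1 was higher and 1 lower (median 0.36), where 13.9% of all genes tested were higher and 5.41% lower. No B cell, T cell, NK cell or platelet marker tested passed. The part of these markers in the difference was not tested.

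A few genes did not follow the rest, and most of these were paralogs or had values near 0. Rpl7l1, a homolog of Rpl7, had 60.2 FPKM in CD19Cre Gr-1+ cells, against 39.3, 35.1 and 43.5 FPKM in null replicates 1 and 2 and CEBPaCre. Its Gr-1- values were 67.5 FPKM in CD19Cre, against 36.9, 41.5, 40.2 and 36.0 FPKM in null, CEBPaCre, CD11cCre and floxed. It was thus highest in the libraries labelled CD19Cre, with no overlap (log2 difference 0.70 ± 0.16, limma adjusted p = 0.0173). This call was lost without either of those libraries (adjusted p = 0.226 without the Gr-1+ and 0.163 without the Gr-1- one), with log2 differences of 0.79 and 0.61. Its parent Rpl7 went the other way, at 127 ± 5.76 FPKM in the libraries labelled CD19Cre and 329 ± 109 FPKM in the others (SD, n = 2 and 7; -1.35 ± 0.24, limma adjusted p = 0.00892).

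Rps27l, a paralog of Rps27 known as a p53 target, had 266 and 256 FPKM in the Gr-1+ and Gr-1- libraries labelled CD19Cre, against 334, 265 and 341 FPKM in the other Gr-1+ and 186, 202, 158 and 224 FPKM in the other Gr-1- libraries. The ranges overlapped and the difference of 0.11 ± 0.22 did not pass (limma adjusted p = 0.743); with upper quartile scaling it was -0.23. Rps27 had 287 and 377 FPKM in the Gr-1+ and Gr-1- libraries labelled CD19Cre, against 1208, 214 and 496 FPKM in the other Gr-1+ and 359.8, 1051, 766 and 1417 FPKM in the other Gr-1- libraries. These values ran from 214 FPKM in null Gr-1+ replicate 2 to 1417 FPKM in the floxed library and did not pass (-0.95 ± 0.60, limma adjusted p = 0.271). Rps19bp1, which binds Rps19 and is also known as a regulator of SIRT1, had 20.6 ± 4.07 FPKM in the libraries labelled CD19Cre and 15.1 ± 2.49 FPKM in the others, and did not pass either (0.45 ± 0.18, limma adjusted p = 0.104).

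Of the other paralogs, Rpl22l1 fell together with its parent Rpl22. Rpl22l1 averaged 24.6 ± 3.39 FPKM in the libraries labelled CD19Cre and 58.6 ± 17.6 FPKM in the others (-1.20 ± 0.27, limma adjusted p = 0.0168). Rpl22 averaged 6.79 ± 0.840 FPKM in CD19Cre and 21.4 ± 9.30 FPKM in the others (-1.47 ± 0.28, limma adjusted p = 0.0101). The paralog was the more abundant of the pair in every library on this per-length scale. Rpl36al likewise exceeded Rpl36a in every library, at 214 ± 27.8 FPKM in CD19Cre and 362 ± 134 FPKM in the others, and did not pass (-0.73 ± 0.26, limma adjusted p = 0.0707), while Rpl36a passed at -1.83 ± 0.38 (adjusted p = 0.0127). Rps4y2, an older name of Rps4l, which RefSeq lists as a transcribed pseudogene, averaged 4.54 ± 0.513 FPKM in CD19Cre and 8.71 ± 4.50 FPKM in the others and did not pass (-0.71 ± 0.43, limma adjusted p = 0.252), while its parent Rps4x did (-1.38 ± 0.27, adjusted p = 0.0114).

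Rpl26 and Rpl30 held all 8 of the 756 gene values under 0.01 FPKM, and no value was exactly 0. Rpl26, a large subunit protein, had 7.27, 5.63 and 3.16 FPKM in the CD19Cre Gr-1+, CD19Cre Gr-1- and CEBPaCre Gr-1- libraries and between 0.00106 and 0.00198 FPKM in the other 6. It passed as higher in the libraries labelled CD19Cre (limma adjusted p = 0.00980), but 6 of its 9 values are near 0 and may be failed estimates of an abundant gene. The size of its difference then depends on the pseudocount, so none is given here. Rpl30 had 21.9 and 3.67 FPKM in the Gr-1+ and Gr-1- libraries labelled CD19Cre, against 8.04, 12.5 and 5.15 FPKM in the other Gr-1+ libraries. In the other Gr-1- libraries it had 11.3 and 5.92 FPKM in null and CEBPaCre, and 0.000226 and 0.000249 FPKM in CD11cCre and floxed. GENCODE lists pseudogenes named for 61 of the 84 genes, up to 24 for Rps12 and for Rpl31, with 9 for Rpl30, 8 for Rps15a, 7 for Rps13 and 6 for Rpl26. How fragments were shared among such copies is not given in the sources used here, so the levels of all these genes, Rps12 included, are uncertain to that extent.

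**Figure D3:**
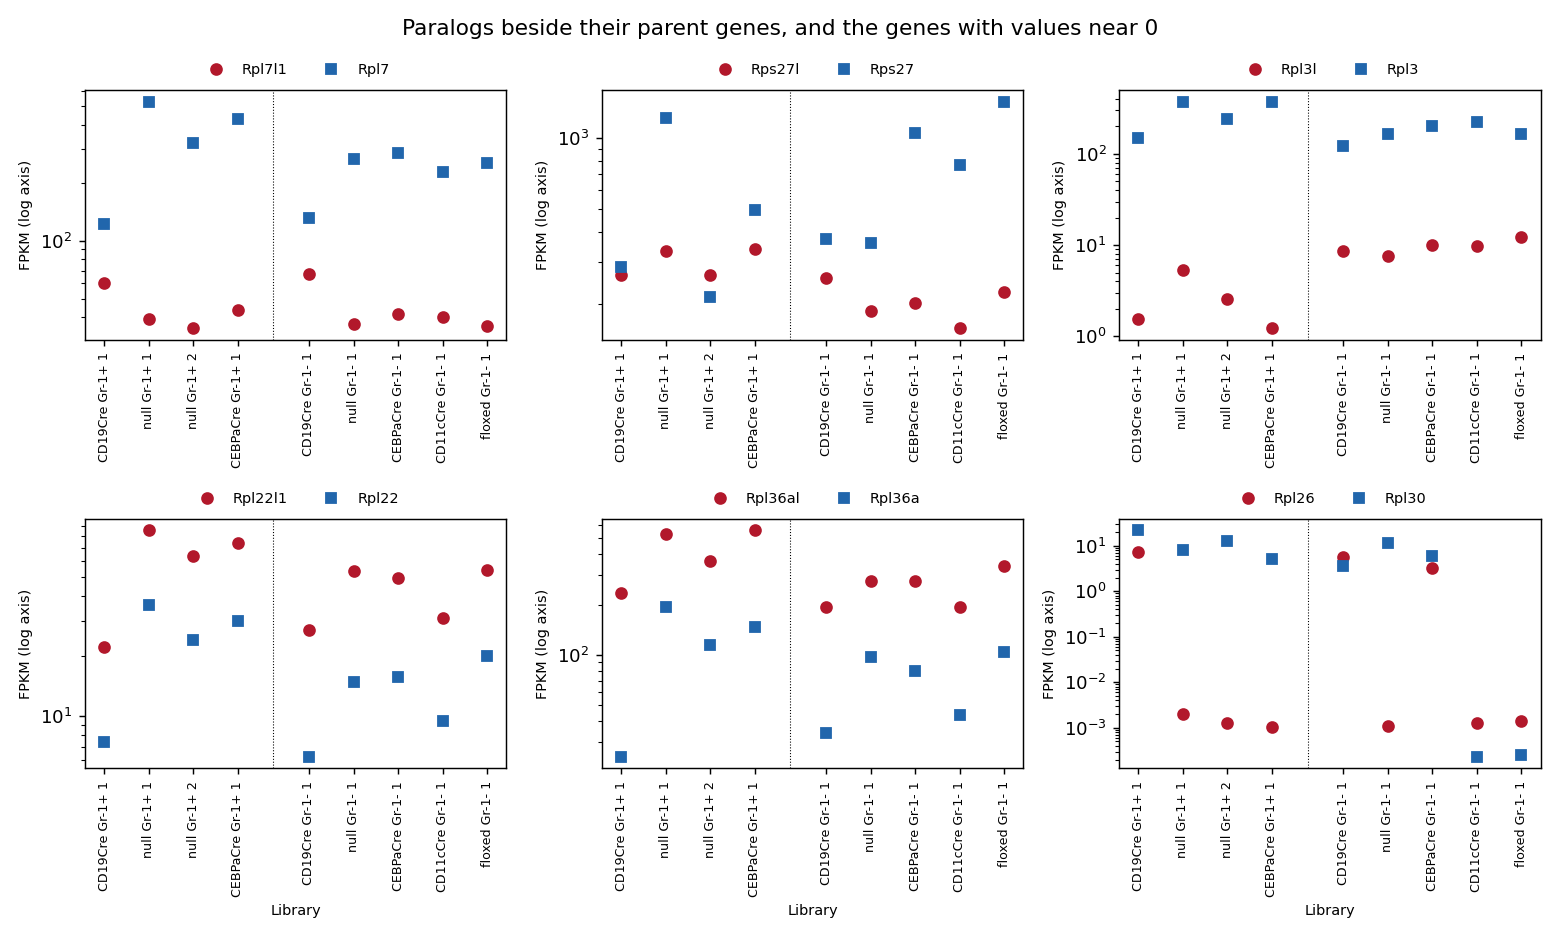
FPKM on a log axis (y) by library (x; the dotted line parts Gr-1+ on the left from Gr-1- on the right) for 5 paralogs in red with their parents in blue, and for Rpl26 and Rpl30; each point is 1 library. Rpl7l1 is highest in both libraries labelled CD19Cre where Rpl7 is lowest, Rpl3l is lower in every Gr-1+ than in every Gr-1- library, and Rpl26 and Rpl30 drop to near 0 in some libraries.

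The spread of ribosomal protein genes between libraries was shared by most of the family. The coefficient of variation over the 9 libraries had a median of 0.473, against 0.345 for all genes tested and 0.366 for the 768 other genes that averaged 100 FPKM or more. Over the 7 libraries outside CD19Cre the medians were 0.354, 0.289 and 0.277. Once each library was scaled to the same sum over the 84 genes, the median was 0.184, and 66 of 84 genes were under 0.25. Such scaling by itself removes spread that the genes share, and no other gene list was scaled to its own sum. Of the 84 genes, 66 had a Pearson correlation over 0.9 with the mean of the others across the 9 libraries, and 8 were under 0.5. These 8 were Rpl26 (-0.76), Rpl7l1 (-0.71), Rps19bp1 (-0.54), Rpl3l (-0.11), Rpl30 (-0.05), Rps27 (0.40), Rps27l (0.42) and Rps4y2 (0.496). The points of these correlations share library, depth and scaling, so they are given as a description. They include both libraries labelled CD19Cre, which lay below all 7 others in 65 of the 84 genes.

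Over all libraries, CD19Cre included, the genes with the largest coefficients of variation were Rpl26 (1.61), Rpl30 (0.908), Rps12 (0.658), Rps20 (0.651) and Rps27 (0.645). Those with the smallest were Rps19bp1 (0.218), Rps27l (0.252), Rpl7l1 (0.258), Rpl5 (0.278) and Rps14 (0.291). Rpl5 carries 5S rRNA into the large subunit, and Rps14 is the gene known from 5q deletion syndrome in humans. Of the small-spread genes, 3 are thus paralogs or no ribosomal protein. After scaling to the family's sum the smallest spread was that of Rpl35a (0.0612), named here after its value was seen.

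Libraries of the same genotype and subset also differed. Null Gr-1+ replicate 1 exceeded replicate 2 in 83 of the 84 genes, with a median ratio of 1.65, where all genes tested had 1.14. Null Gr-1+ replicate 1 was the highest of all 9 libraries in 68 of the 84 genes (11.3% of all genes tested). The exception was Rpl30, at 8.04 FPKM in replicate 1 and 12.5 FPKM in replicate 2, and the largest ratio was that of Rps27 (1208 and 214 FPKM, 5.63-fold). The median SD of log2(FPKM + 1) within Gr-1+ libraries was 0.96 with CD19Cre and 0.38 without it. Within Gr-1- libraries it was 0.45 with CD19Cre and 0.24 without it.

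**Figure D4:**
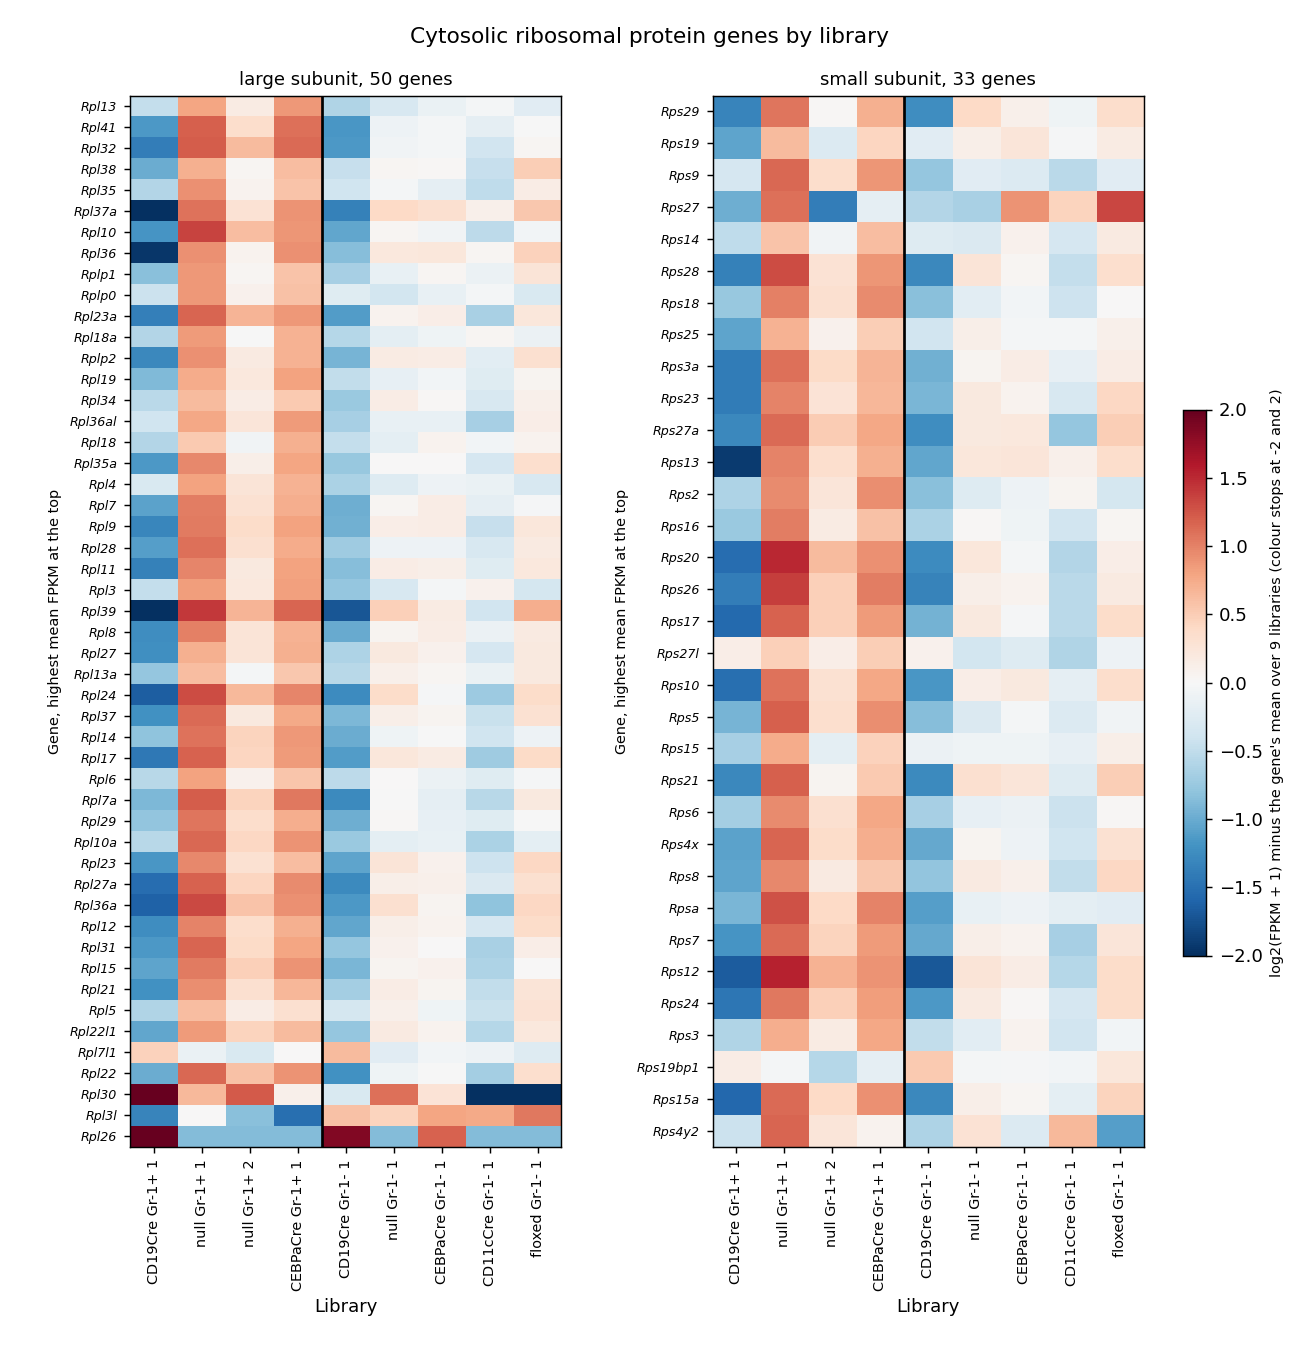
Colour gives log2(FPKM + 1) of 83 of the 84 genes (rows, by subunit) in each of the 9 libraries (columns, Gr-1+ left of the line and Gr-1- right of it) minus the gene's own mean over the libraries. The first column of each subset, CD19Cre, is blue in most rows, null Gr-1+ replicate 1 is red in most rows, and rows such as Rpl7l1, Rpl3l, Rpl26 and Rps19bp1 break the pattern.

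Between Gr-1+ and Gr-1- monocytes, a paralog was the sole gene of the family to pass when all 9 libraries were used. No gene passed as higher in Gr-1+ cells and 1 passed as lower (limma, with the same threshold), where 8.84% of all genes tested were higher and 5.95% lower. With all 9 libraries, 7 of the 84 genes had an unadjusted p under 0.05 (limma), against 27.0% of all genes tested. Without the libraries labelled CD19Cre, 60 of the 84 had such a p, against 29.4% of all genes tested. The low count with all libraries therefore depended on the CD19Cre libraries. The median difference was 0.43 on the log2 scale, against 0.09 for all genes tested. The difference was positive in 77 of 84 genes and in 57.7% of all genes tested. With the genotype as a block, 1 gene was higher (Rpl22, 0.72 ± 0.21, limma adjusted p = 0.0471) and 1 lower, where 16.0% and 9.97% of all genes tested passed.

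The gene that passed as lower was Rpl3l, a paralog of Rpl3 that is known from skeletal and heart muscle. In Gr-1+ cells Rpl3l had 1.55 FPKM in CD19Cre and 5.39, 2.57 and 1.22 FPKM in null replicates 1 and 2 and CEBPaCre. In Gr-1- cells it had 8.51 FPKM in CD19Cre and 7.68, 9.96, 9.78 and 12.2 FPKM in null, CEBPaCre, CD11cCre and floxed. The subsets did not overlap, and the log2 difference was -1.64 ± 0.29 (limma adjusted p = 0.00302). It passed in every alternative run, with adjusted p between 0.00041 and 0.0150. For its parent Rpl3 the Gr-1+ mean was 285 ± 108 FPKM and the Gr-1- mean 176 ± 38.8 FPKM (SD, n = 4 and 5), and it did not pass (0.63 ± 0.30, adjusted p = 0.210).

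Without the libraries labelled CD19Cre, 28 genes were higher in Gr-1+ cells and 1, Rpl3l, was lower, where 10.4% of all genes tested were higher and 5.54% lower (limma, 3 against 4 libraries). The median difference was then 0.70, against 0.09 for all genes tested. The smallest p belonged to Rpl32, a large subunit protein. It had 1332, 885 and 1250.1 FPKM in null replicates 1 and 2 and CEBPaCre Gr-1+ cells, against 547, 556, 439.7 and 590.1 FPKM in null, CEBPaCre, CD11cCre and floxed Gr-1- cells. All 3 Gr-1+ values were above all Gr-1- values (1.10 ± 0.21, limma adjusted p = 0.00802). Rps9, which lies near the mRNA entry side of the small subunit, had 1472, 845 and 1226 FPKM in these Gr-1+ libraries, against 567, 547, 456 and 571 FPKM in the Gr-1- libraries, again with no overlap (1.11 ± 0.22, limma adjusted p = 0.0104).

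For Rpl10a the Gr-1+ mean was 195 ± 48.7 FPKM and the Gr-1- mean 88.1 ± 12.7 FPKM (SD, n = 3 and 4; 1.11 ± 0.22, limma adjusted p = 0.00964). Rpsa averaged 299.9 ± 88.5 FPKM in Gr-1+ cells and 139 ± 5.39 FPKM in Gr-1- cells (1.05 ± 0.22, adjusted p = 0.0123), and Rpl10, which joins the large subunit late in its assembly, 899 ± 242 FPKM in Gr-1+ cells and 413 ± 66.0 FPKM in Gr-1- cells (1.10 ± 0.23, adjusted p = 0.0127). Rps27l passed as well (0.70 ± 0.19, adjusted p = 0.0362), and Rps29 did not (0.40 ± 0.27, adjusted p = 0.371). With all 9 libraries, in which the CD19Cre Gr-1+ library enters as a low value, Rps9 was at 0.92 ± 0.30 (limma adjusted p = 0.0672) and Rpl10a at 0.86 ± 0.33 (adjusted p = 0.111). Leaving out the CD19Cre Gr-1+ library alone gave 26 higher and 1 lower, where 940 of all genes tested were higher and 601 lower. Genes listed as markers of other cell types differed between the same subsets, with tests run without CD19Cre and sums given over all 9 libraries. Of the neutrophil markers, 11 of 14 tested were higher in Gr-1+ cells, and all 16 summed to 882 to 2702 FPKM in Gr-1+ libraries, against 75.5 to 157 FPKM in Gr-1- libraries, with Camp at 0 in every Gr-1- library. In the test with all 9 libraries, Csf3r (0.39), Retnlg (0.58) and Cxcr2 (-0.12) did not pass. S100a8 alone held 1423 of the 2702 FPKM in null Gr-1+ replicate 1. NK cell markers, of which 7 of 10 tested were lower in Gr-1+ cells, summed to 1.56 to 4.47 FPKM in Gr-1+ libraries, against 24.5 to 470 FPKM in Gr-1- libraries, with Ncr1 at 0 in every Gr-1+ library. B cell markers, of which 3 of 5 tested were lower in Gr-1+ cells, summed to 10.7 to 19.8 FPKM in Gr-1+ libraries, against 47.2 to 131 FPKM in Gr-1- libraries (9 genes), with Ebf1 at 0 in every Gr-1+ library. Their part in the difference was not tested.

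A further contrast set libraries whose labelled genotype lacks Fcgr2 in myeloid cells (null and CEBPaCre, 5 libraries, deleted below) against those in which it should be present (CD19Cre and floxed, 3 libraries, intact below). The subset was a covariate and CD11cCre was left out. None of the 84 genes passed, and of all 10429 genes tested 0.0% passed as higher and 0.0% as lower (limma). At an unadjusted p under 0.05 stood 55 of the 84 genes and 14.1% of all genes tested. The median difference was 0.97, against -0.03 for all genes tested, and 80 of 84 genes were positive, as were 47.0% of all genes tested. The share of summed FPKM was 6.01% ± 1.20 in deleted and 3.42% ± 2.15 in intact libraries (SD, n = 5 and 3). Of the 3 intact libraries, 2 are the low CD19Cre pair, and the floxed library at 5.90% lay within the deleted range of 4.76% to 7.84%. Without the floxed library, 65 genes were higher and 2 lower in a contrast of null and CEBPaCre against CD19Cre alone, where 800 of all genes tested were higher and 1751 lower. With both CD19Cre libraries left out, the intact side is the floxed library alone, which is assumed to vary like the others. Then 0 of the 84 genes passed and 1 had an unadjusted p under 0.05 (limma), where 5 of all genes tested were higher, 0 were lower and 9.94% had such a p. The median difference was -0.14, against 0.23 for all genes tested. In 2 of the 3 intact libraries, presence of Fcgr2 and the CD19Cre label cannot be told apart. This contrast shares both CD19Cre libraries with the one above. The smallest adjusted p (limma, 0.306) was shared by Rpl7, Rpl15, Rps12, Rps20 and Rpl37a, with Rps12 at 245 ± 102 FPKM in deleted and 88.9 ± 79.3 FPKM in intact libraries (1.66 ± 0.53).

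Genes that work beside the cytosolic ribosome were set against the family in the CD19Cre comparison (limma, adjusted p at or under 0.05). Fau, which encodes a small subunit protein fused to a ubiquitin-like domain, had 199 and 236 FPKM in the Gr-1+ and Gr-1- libraries labelled CD19Cre, against 678, 370.1 and 601 FPKM in the other Gr-1+ and 444, 436, 364 and 463 FPKM in the other Gr-1- libraries. Every CD19Cre value was lower than every other, and Fau passed (-1.12 ± 0.25, limma adjusted p = 0.0162). Gnb2l1, the older name of the ribosomal scaffold Rack1, did not pass (-0.25 ± 0.24, adjusted p = 0.468).

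Of 17 other genes known for a TOP tract, 11 were lower and 0 higher, with a median of -0.88. Eef1a1, the elongation factor that brings aminoacyl-tRNA to the ribosome, averaged 353 ± 85.2 FPKM in the libraries labelled CD19Cre and 935 ± 391 FPKM in the others (SD, n = 2 and 7; -1.38 ± 0.23, limma adjusted p = 0.00806). Pabpc1, the poly(A) binding protein, was at -1.13 ± 0.21 (adjusted p = 0.00914) and Eif3f at -1.18 ± 0.22 (adjusted p = 0.00968), while Eef2 did not pass (-0.57 ± 0.20, adjusted p = 0.0726). These counts rest on the same 2 libraries as those of the ribosomal protein genes.

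The median of the elongation factors lay below 0, at -0.58 (-0.91 with upper quartile scaling), with 2 of 6 tested lower (Eef1a1 and Eef1b2) and 0 higher, and 5 of these 6 are also among the TOP genes above. The medians of the other lists of the translation machinery and of other short or abundant messages lay above 0 with FPKM as deposited. Of 76 mitochondrial ribosome genes tested, 23 were higher and 0 lower (median 0.37). Among 37 initiation factors 10 were higher and 4 lower (median 0.35), and among 38 ribosome biogenesis genes 8 were higher and 4 lower (median 0.24). The initiation factors share at least Eif3f, the lowest of them at -1.18, with the TOP genes above, so these lists are not separate. Of 83 genes of the respiratory chain and ATP synthase, whose transcripts are as short (median 669.5 bases, against 714 for the family), 17 were higher and 3 lower (median 0.29). Of 39 proteasome genes 17 were higher and 1 lower (median 0.50). The 1693 other genes tested with a transcript under 1000 bases had 322 higher and 81 lower (median 0.22), and the 768 others that averaged 100 FPKM or more had 186 higher and 44 lower (median 0.33). With upper quartile scaling, where the median of all genes tested was -0.11, the medians were 0.04 for mitochondrial ribosome genes (11 higher and 3 lower), 0.02 for initiation factors (7 and 8), 0.16 for proteasome genes (13 and 2), -0.04 for biogenesis genes (5 and 9) and -0.05 for respiratory chain genes (13 and 6). The last 2 medians thus changed sign with the scaling, while that of other TOP genes was -1.22 (0 higher and 14 lower).

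In the subset comparison without the libraries labelled CD19Cre, other TOP genes had 9 of 17 higher and 0 lower in Gr-1+ cells (median 0.78). Respiratory chain genes had 20 of 83 higher and 0 lower (median 0.50), so a median above that of all genes tested was found there too. Mitochondrial ribosome genes had 5 of 76 higher and 0 lower (median 0.27), and ribosome biogenesis genes 1 higher and 1 lower of 38 (median -0.08). Among TOP genes, Vim, an intermediate filament gene, had 635 ± 88.7 FPKM in Gr-1+ cells, against 134 ± 22.5 FPKM in Gr-1- cells (SD, n = 3 and 4; 2.24 ± 0.20, limma adjusted p = 0.000167). Eef1a1 had 1311 ± 261 FPKM in Gr-1+ cells, against 652 ± 108 FPKM in Gr-1- cells (adjusted p = 0.0139).

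**Figure D5:**
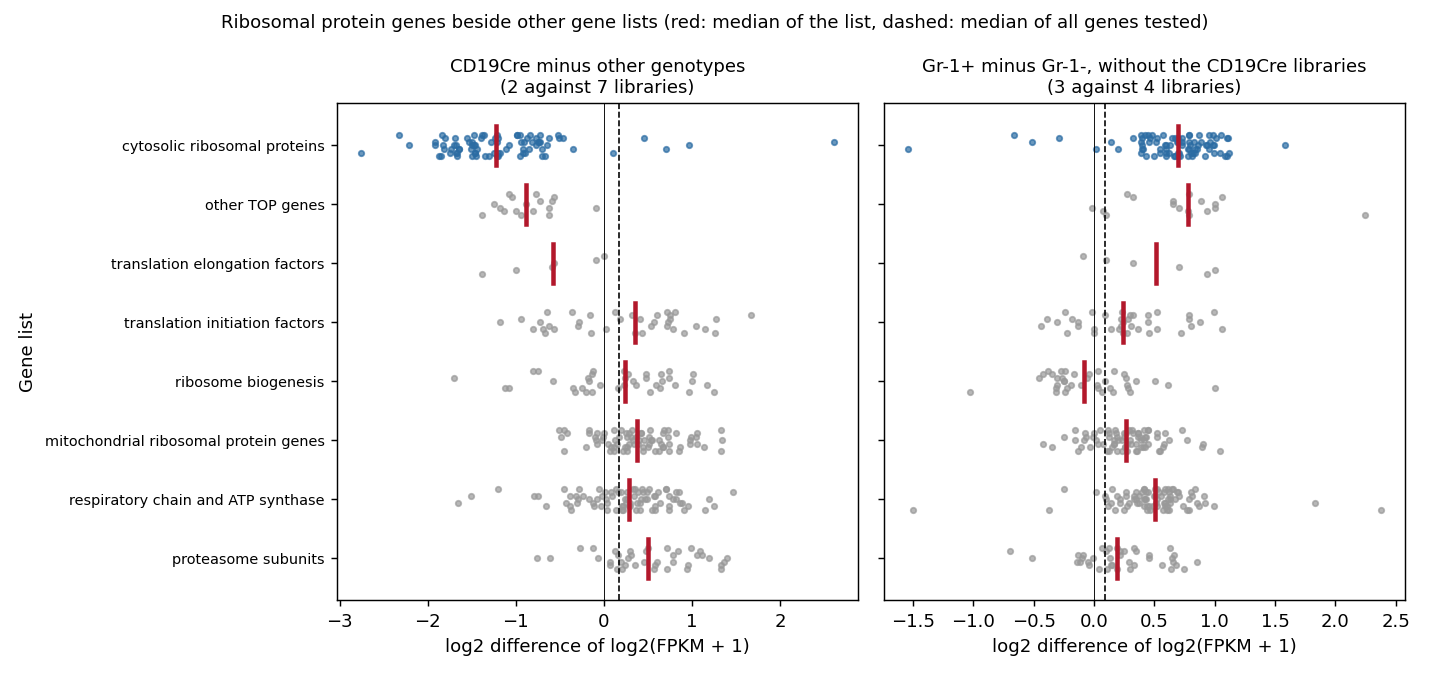
Points are log2 differences of single genes (x axis) by gene list (y axis) for CD19Cre minus other genotypes (left) and for Gr-1+ minus Gr-1- without the libraries labelled CD19Cre (right); red bars are list medians and the dashed line is the median of all genes tested. On the left the ribosomal protein genes (median -1.23) and other TOP genes (-0.88) lie below 0 and mitochondrial ribosome genes (0.37) above it, the last at 0.04 with upper quartile scaling. On the right the ribosomal protein and other TOP genes lie above 0, at 0.70 and 0.78.

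The genes outside the family whose levels ran most like its mean were then ranked by Pearson correlation of log2(FPKM + 1) over the 9 libraries, among 5304 genes that averaged 10 FPKM or more. The first 5 were predicted genes: Gm6654 (0.991), Gm6251 (0.985), Gm13253 (0.984), Gm11968 (0.984) and Gm5148 (0.983). RefSeq lists 3 of them as transcribed pseudogenes and 2 as protein coding. Gm6654 had 6.37 and 8.06 FPKM in the Gr-1+ and Gr-1- libraries labelled CD19Cre, against 49.4, 26.8 and 33.8 FPKM in the other Gr-1+ and 17.2, 18.9, 11.5 and 18.5 FPKM in the other Gr-1- libraries. Tpt1 (rank 8, 0.980), Naca (rank 9, 0.979) and Btf3 (rank 10, 0.979) followed close behind. All points share library and depth, both libraries labelled CD19Cre are among them, and the correlations are a description only.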

How the data were processed

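RNA of 9 libraries was made into cDNA by a SMART-Seq v4 low input protocol and sequenced on a HiSeq 1500, per the labels. The deposited FPKM values were made by the authors with TopHat2 2.0.8 and Cufflinks 2.1.1 on the mm9 build, per the submitters' processing notes; the annotation and settings are not given in the sources used here. Every value column was used (0 left out).

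Values were analysed as log2(FPKM + 1), so folds of low genes are understated. Genes were tested if they averaged 1 FPKM or more across the 9 libraries and were above 0 in 2 or more of those fitted, with limma 3.58.1 in R 4.3.3 (eBayes with a trend) and Benjamini-Hochberg adjustment over all of them; the fit was checked on simulated data. Errors of log2 differences are SE. Shares and spreads carry no test. Pandas 2.3.3 and matplotlib 3.10.9 on Python 3.11.15 did the rest.

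Genes were named by rule: stalk genes, Rpsa, Rps27a, Rps19bp1, paralogs with parents, values near 0, the 5 highest means, the 5 largest and 5 smallest coefficients of variation, the 6 smallest p in each direction of each comparison, and the 5 nearest genes outside the family. Outside the family, Fau, Gnb2l1 and up to 3 genes a list were named. Some genes that the rule names, and their plotted values, are not reported here. The members, lists and comparisons, the CD19Cre one included, were chosen with earlier results of these data known. Alternatives were another pseudocount (0.1), other mean filters, upper quartile scaling, leaving out libraries, a genotype block and, for shares, leaving out small RNA symbols or the 20 highest other symbols. Replicate numbers pair only null replicate 1, so libraries were paired by genotype: deviations from the subset mean correlated at 0.59 for CD19Cre, 0.19 for CEBPaCre, and 0.26 and 0.16 for null Gr-1+ replicates 1 and 2 with null Gr-1-, and at -0.38 to 0.25 between genotypes. Over the family's genes alone the same pairs correlated at 0.94 for CD19Cre, -0.26 for CEBPaCre, and 0.22 and 0.75 for null replicates 1 and 2. Between genotypes those correlations ran from -0.89 to 0.74. The labels do not say that the paired libraries came from the same mice.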

Additional observations from a re-analysis of the deposited data

Results flagged for a closer look

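Among the shares, mean levels and named genes, a library lay far from the others of its subset, by the size of its gap, in 5 of 80 combinations of measure and subset. Chance flags about 1 in 20 independent combinations. Most of these genes move together, and many were named for a small p or an extreme spread, so that rate does not apply here. All 5 were libraries labelled CD19Cre, but Rpl26, Rpl7l1 and Rps13 were named for their small p in the CD19Cre comparison, so the label is no separate result. Rpl26 had 7.27 FPKM in CD19Cre Gr-1+ cells, where the other 3 Gr-1+ libraries were near 0. In Gr-1- cells, Rpl7l1 was high in CD19Cre, at 67.5 FPKM against 36.0 to 41.5 FPKM. The other flags were low values of CD19Cre Gr-1- cells: Rpl41 at 300.2 FPKM against 595 to 671 FPKM, Rps13 at 117 FPKM against 260.5 to 310.1 FPKM, and Rpsa at 72.0 FPKM against 134 to 146 FPKM in the other 4 Gr-1- libraries. No cause was tested.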

How the results depend on the processing

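Of 116 recomputed counts, medians, shares and spreads, 105 stayed within 1.5 times the count or within 1 SD of the main value. That rule is wide, so the 105 is no measure of stability. For Gr-1+ minus Gr-1-, the SD was 1.94 for a share difference of 1.11 percentage points. It was 0.62 for a median difference of 0.43. Passing counts of 0 that stayed at 0 are also among the 105. Leaving out 1 library in turn gave 1 to 27 passing genes for the subsets, 0 to 69 for CD19Cre and 0 to 67 for deletion, and medians of 0.18 to 0.86, -1.78 to -0.82 and 0.39 to 1.31. The share difference ran from -3.82 to -3.13 percentage points for CD19Cre minus other genotypes and from 0.33 to 2.27 for Gr-1+ minus Gr-1-, and the median spread from 0.408 to 0.505. The CD19Cre Gr-1+ library gave 27 and 0, and the floxed library 67. Leaving out both CD19Cre libraries gave 29 passing genes for the subsets and a deletion median of -0.14. The replicate block by genotype gave 2 passing genes for the subsets against 1 without it, the added one being Rpl22, and changed no other call named for that comparison. Upper quartile scaling moved the CD19Cre median to -1.56 and the median of all genes by over 0.1 in each comparison (0.09 to -0.01 for the subsets, 0.18 to -0.11 for CD19Cre, -0.03 to 0.10 for deletion). Scaling to the family's sum moved the median spread to 0.184. The cause of these changes was not tested.

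Of 825 recomputed gene values, 748 kept direction and call. Those that changed direction had not passed. For Gr-1+ minus Gr-1-, leaving out 1 library gave Rpl26 -0.96 to 0.25, Rpl7l1 -0.14 to 0.17, Rps19 -0.35 to 0.21 and Rplp2 -0.032 to 0.70. Rpl7l1 was -0.11 with upper quartile scaling and -0.026 with the replicate block; without CD19Cre, Rps19 was 0.14. For CD19Cre, Rps27l was -0.23 to 0.42 with 1 library left out and -0.23 with upper quartile scaling. For deletion, Rps27l was -0.30 to 0.023 and 0.079 in the same settings. Without CD19Cre, deletion gave Rpl26 1.03, Rpl37a -0.18, Rpl7l1 0.12, Rps12 -0.15 and Rps20 -0.044. Leaving mitochondrially encoded symbols out of the shares was not run, as the files list 0 of them. Depth is unknown, and 1 library per genotype and subset limits every comparison.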

Other observations

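Symbols left outside the family were looked at after their values were seen. Rpl34-ps1 had 0.0067 FPKM in CD19Cre Gr-1+ cells, against 159, 48.7 and 114 FPKM in null replicates 1 and 2 and CEBPaCre. In Gr-1- cells it had 63.4 FPKM in CD19Cre, the highest of that subset, against 17.1 to 60.7 FPKM in the other 4 libraries. Rplp2-ps1 had 15.0 and 17.0 FPKM in the Gr-1+ and Gr-1- libraries labelled CD19Cre against 72.7, 40.4 and 52.0 FPKM in the other Gr-1+ and 27.8 to 59.6 FPKM in the other Gr-1- libraries. Rps19-ps3 had 35.9 and 66.2 FPKM in the same CD19Cre libraries against 105, 57.0 and 98.9 FPKM in the other Gr-1+ and 74.3 to 90.1 FPKM in the other Gr-1- libraries. The testis paralogs Rpl10l and Rpl39l were at 0 in 8 and 6 of the 9 libraries, at most 0.485 and 0.715 FPKM.

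Among the 77 core genes, the CD19Cre difference had a Spearman correlation of 0.41 with the GC content of the transcript, 0.10 with its length and 0.07 with the mean level. Over 8823 other genes tested with an annotated transcript, the values were 0.00 for GC content and -0.11 for length, and over all 10352 other genes tested the value for the mean level was 0.29. These are correlations across genes, which are not independent, and are given as a description.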
